A study of Homo sapiens with 6 samples.

Results

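Transcripts of the mitochondrial ribosomal proteins were compared between 2 lines of ovarian carcinoma cells. Members were the probe sets annotated to exactly 1 gene whose symbol is MRPS (small subunit) or MRPL (large subunit) followed by a digit, without antisense RNAs and pseudogenes. This rule, which uses no measured value, gave 140 of 54613 probe sets, 57 for MRPS and 83 for MRPL genes. They stand for 75 of the 19775 genes named on the array, 27 MRPS and 48 MRPL genes. RefSeq lists 77 protein-coding genes of these names, and MRPL53 and MRPS24 had no probe set of their own. In the structure of the ribosome 2 proteins with small-subunit names, MRPS18A and MRPS30, sit in the large subunit. No filter on low signals was applied, so every member was tested.

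Mitochondrial ribosomes translate the few messages of the mitochondrial genome, which encode core subunits of the respiratory chain and of ATP synthase. Their ribosomal RNAs come from the mitochondrial genome, whereas all their proteins are encoded in the nucleus, made in the cytosol and imported. Many of these proteins have a homologue in the bacterial ribosome, and others exist only in mitochondria. A full set is needed to build either subunit, and assembly factors, translation factors and dedicated aminoacyl-tRNA synthetases work with them.

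RNA was taken from SKOV3.ip1 cells, which derive from SKOV3, a human ovarian carcinoma line, and were grown in DMEM/F12 medium with 10% FBS and antibiotics. Both lines carried a stably transfected vector for PEA-15, a small adaptor protein that binds ERK and FADD. In the S116A line PEA-15 had alanine in place of Ser116, a residue that then takes no phosphate. In the S116D line PEA-15 had aspartic acid there, which mimics the phosphorylated form. For the S116D line the titles name Ser116, the sample characteristics also name Ser104, and the treatment text names Ser16, so the number of substitutions is not settled by the labels. Each line was measured on 3 arrays, and separate cultures are not named in the labels, so p-values measure only the spread between arrays, which may be technical. Whether a line was 1 clone or a pool, and which promoter drove the vector, is not given in the sources used here. No parental or empty-vector cells were analysed here, so each difference is S116D minus S116A on the log2 scale, and neither line is a baseline.

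The promoters of 4 members that were lower in S116D are shown because they hold a short motif of a factor known to act on genes for mitochondrial proteins. They are from RefSeq (GRCh38.p14), in the direction of the gene, and run from 250 bases before the start of the transcript to 30 after it. The MRPS10 window is chr6:42217832-42218111 on the minus strand, with capitals on a YY1 motif, AAGATGGCG.
MRPS10: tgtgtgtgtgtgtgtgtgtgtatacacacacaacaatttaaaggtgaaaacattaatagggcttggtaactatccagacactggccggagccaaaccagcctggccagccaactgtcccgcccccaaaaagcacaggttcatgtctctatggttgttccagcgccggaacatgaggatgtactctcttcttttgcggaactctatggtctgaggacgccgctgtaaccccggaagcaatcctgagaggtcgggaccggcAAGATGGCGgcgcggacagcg
The MRPS18B window is chr6:30617590-30617869 on the plus strand, with capitals on an NRF1 motif, GCATGCGC.
MRPS18B: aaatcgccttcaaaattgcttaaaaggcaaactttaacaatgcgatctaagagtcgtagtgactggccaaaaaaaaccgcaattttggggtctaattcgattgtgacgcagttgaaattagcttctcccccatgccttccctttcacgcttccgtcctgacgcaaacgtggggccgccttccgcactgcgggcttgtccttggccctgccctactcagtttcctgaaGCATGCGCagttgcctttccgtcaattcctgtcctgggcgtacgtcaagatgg
The MRPL3 window is chr3:131502942-131503221 on the minus strand, with capitals on an ETS motif, CCGGAAGT, the kind bound by GABP.
MRPL3: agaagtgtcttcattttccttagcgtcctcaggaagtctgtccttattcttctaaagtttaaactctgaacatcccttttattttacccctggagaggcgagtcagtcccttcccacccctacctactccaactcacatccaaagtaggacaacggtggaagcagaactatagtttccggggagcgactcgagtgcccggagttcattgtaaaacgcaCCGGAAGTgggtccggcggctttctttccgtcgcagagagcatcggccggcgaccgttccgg
The MRPS2 window, 1 of 2 that RefSeq gives for this gene, is chr9:135499715-135499994 on the plus strand, with capitals on an E-box, CACGTG, the kind bound by MYC and USF proteins.
MRPS2: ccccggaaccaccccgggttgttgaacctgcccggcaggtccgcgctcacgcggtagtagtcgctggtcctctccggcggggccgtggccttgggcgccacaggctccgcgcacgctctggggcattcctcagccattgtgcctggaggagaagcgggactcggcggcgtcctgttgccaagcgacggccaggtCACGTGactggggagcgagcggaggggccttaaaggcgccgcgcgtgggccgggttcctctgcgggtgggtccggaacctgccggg

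These 4 motifs were searched on both strands of the full windows of 300 bases, and none of them contains another. Of the 75 members 67 had an entry in the RefSeq promoter table, and 29 of these held at least 1 of the motifs. The YY1 motif was in the promoters of 4 of 26 MRPS genes (15.4%) and 8 of 41 MRPL genes (19.5%), against 3.21% of all protein-coding genes with an entry. The ETS motif was in 2 MRPS genes (7.69%) and 9 MRPL genes (22%), against 6.97% of all. The NRF1 motif was in 7.69% of MRPS and 9.76% of MRPL genes, against 4.89% of all, and in 20% of genes for respiratory chain subunits. The E-box was in 11.5% of MRPS and 14.6% of MRPL genes, against 10.9% of all. The MRPS18B window also held a YY1 motif that starts at base 24 of the transcript and runs past the stretch printed. The windows of MRPS25, MRPS27 and MRPL57 held none of the 4. These matches describe letters in a window, and no binding was measured.

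The arrays were alike in scale, with median log2 signals of all probe sets from 7.862 to 7.893. Correlations across probe sets were 0.9951 to 0.9979 within a line and 0.9866 to 0.9902 between the lines. Of the 9 ovarian epithelial carcinoma markers, the keratins KRT7, KRT8, KRT18 and KRT19 and the adhesion molecule EPCAM had mean signals of at least 10.68 in both lines and were lower in S116D, with KRT19 differing by −2.26. The other 4 were not called: PAX8 was bright in both lines, at 12.77 and 12.82, ERBB2 gave 12.24 and 12.63, WT1 9.51 and 9.44, and MUC16 was dim, at 6.72 and 6.59. By limma none of the 4 leukocyte and 6 fibroblast markers measured was called, with 0 and 1 at an unadjusted p under 0.05. Of 4 endothelial markers KDR was lower, at 6.15 in S116A and 5.73 in S116D. Their part in the differences below was not tested.

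Members gave mean signals between 8.83 for MRPL55 and 13.63 for MRPL3, and the median member, at 11.19, was brighter than the median gene, at 8.80. Probe sets differ in affinity, so these signals do not rank the amounts of different transcripts. The brightest MRPS probe sets were those of MRPS15, MRPS35 and MRPS6 and the dimmest those of MRPS34, MRPS2 and MRPS12. For MRPL genes they were MRPL3, MRPL20 and MRPL51 at the top and MRPL55, MRPL52 and MRPL44 at the bottom. The genes of the members lie on 21 of the 22 autosomes.

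A gene was called different when its Benjamini-Hochberg adjusted p from limma, over all 19775 genes, was under 0.05, with the brightest probe set standing for the gene. Over all genes 12.2% were called, 6.79% higher and 5.39% lower in S116D. Of the 27 MRPS genes 4 were lower and 1 was higher (18.5%), and of the 48 MRPL genes 1 was lower and 1 was higher (4.17%). The small-subunit genes that were lower are MRPS10, MRPS18B, MRPS27 and MRPS2, and the higher one is MRPS25. In the large subunit MRPL3 was lower and MRPL57 higher. The other 68 members were not called. At an unadjusted p under 0.05 there were 8 MRPS and 7 MRPL genes, against 24% of all genes. Adjusted over all probe sets instead of genes, the probe sets of MRPS27 (adjusted p = 0.052), MRPS2 (0.054), MRPL3 (0.056) and MRPL57 (0.051) missed the threshold. With ordinary t statistics 3 members were called, MRPS10, MRPS18B and MRPS2. With any 1 array left out only 2 MRPS genes were lower, MRPS10 and MRPS18B, and without S116A 3 there were 6 MRPL genes higher. Arrays measure RNA of a whole culture, so fewer cells with a transcript and less of it per cell cannot be told apart.

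**Figure D1:**
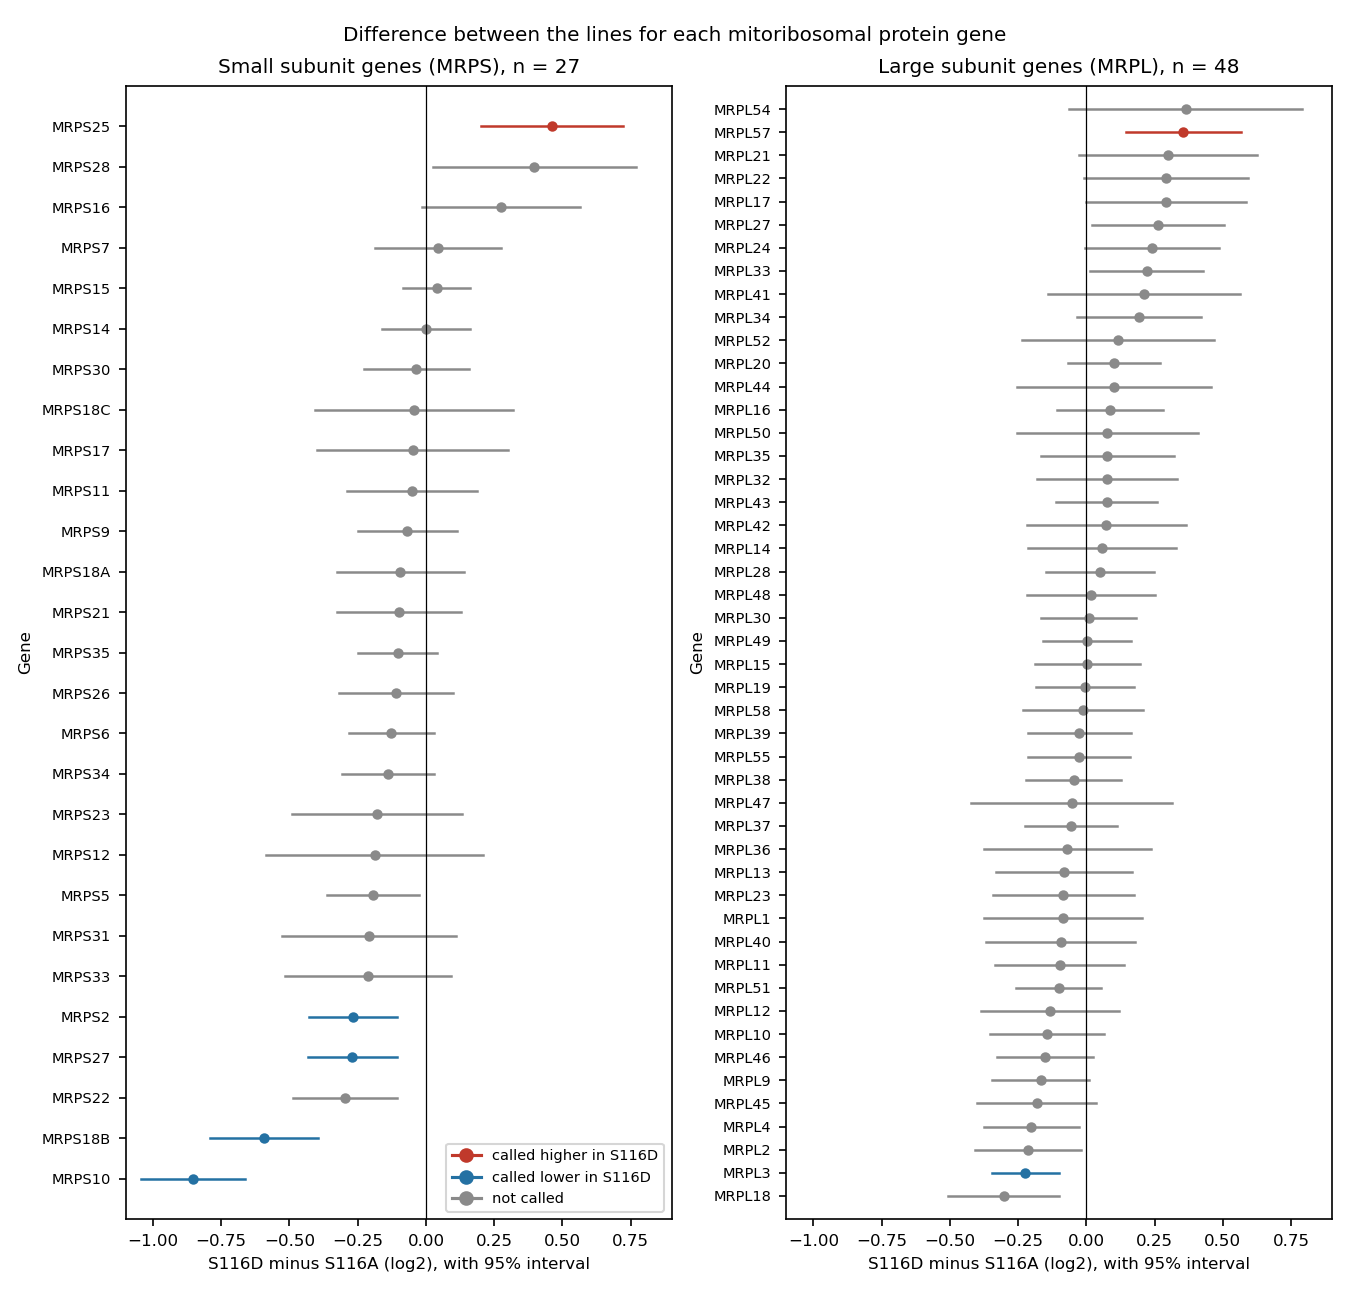
Difference between the lines on the log2 scale (horizontal axis) for each MRPS gene (left) and MRPL gene (right), with points for the limma estimate, lines for its 95% interval and colour for the call. Most MRPS points lie left of 0, 21 of 27, with MRPS10 at −0.85 farthest out, while MRPL points lie on both sides, 23 below and 25 above 0.

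The MRPS genes as a list lay slightly lower in S116D. Their median difference was −0.10, against 0.0064 over all genes, and 21 of the 27 were below 0 (77.8%), against 47.7% of all genes. Signals of the 3 S116D arrays all lay below those of the 3 S116A arrays for 9 MRPS genes, and above them for 1. Over all genes such separation occurred downward in 12.6% and upward in 15.3%. The median depended on single arrays, being −0.045 without S116A 3, −0.063 without S116D 1 and −0.158 without S116A 1. By structure, the 25 members in the small subunit gave the same 5 calls and a median of −0.11. Mitoribosomal proteins without an MRP name, read further below, are not among these 25, and the 4 measured were all above 0. Of the 17 MRPS genes with a bacterial homologue 3 were lower and none higher. Of the 10 mitochondrion-specific ones 1 was lower and 1 higher, and 9 were below 0, with a median of −0.16.

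MRPS10 had the largest difference of all 75 members. It encodes a homologue of a bacterial protein in the head of the small subunit. Its log2 signals were 11.45, 11.27 and 11.29 in S116A and 10.47, 10.46 and 10.52 in S116D. All S116D arrays were far below all S116A arrays. The difference was −0.85 (SE 0.083, 95% interval −1.04 to −0.66, adjusted p = 0.00047, n = 3 arrays per line), 1.81-fold less signal in S116D. Its other probe sets gave −0.53 and −0.61, again with no overlap between the lines, though neither passed the test over all probe sets (adjusted p = 0.058 and 0.083).

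MRPS18B is 1 of 3 human homologues of a single bacterial protein, and each occupies a different place in the ribosome. Its signals were 11.85, 11.64 and 11.62 in S116A and 11.11, 11.12 and 11.10 in S116D. The S116D arrays nearly coincided, and S116A 1 was the highest. The difference was −0.59 (95% interval −0.79 to −0.40, adjusted p = 0.0032), or 1.51-fold. A second probe set gave −0.39 (adjusted p = 0.071) without overlap. The paralogs MRPS18A, at −0.09 (adjusted p = 0.69), and MRPS18C, at −0.04 (adjusted p = 0.92), were not called, and the lines overlapped for both. Whether the 3 paralogs differ from one another was not tested. MRPS10 and MRPS18B were called in each alternative fit and without any single array.

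MRPS27 and MRPS2 were lower by smaller amounts. MRPS27, a mitochondrion-specific protein with pentatricopeptide repeats, had signals of 12.16, 12.05 and 12.12 in S116A and 11.81, 11.89 and 11.82 in S116D, a difference of −0.27 (adjusted p = 0.043). MRPS2, a homologue of a bacterial protein, had 9.79, 9.84 and 9.78 in S116A and 9.56, 9.54 and 9.51 in S116D, also −0.27 (adjusted p = 0.044). The lines did not overlap for either gene. Both calls were lost when any 1 of the 6 arrays was left out, with adjusted p from 0.072 to 0.15 for MRPS27 and from 0.057 to 0.16 for MRPS2.

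MRPS25, a mitochondrion-specific protein of the small subunit, was the only MRPS gene called higher. Its signals were 9.51, 9.62 and 9.92 in S116A and 10.08, 10.21 and 10.13 in S116D. S116A 3 came nearest to the S116D arrays but stayed below them. The difference was 0.46 (95% interval 0.20 to 0.72, adjusted p = 0.034), or 1.38-fold. The call was lost without S116A 1, S116A 2, S116D 2 (adjusted p = 0.12 each) or S116D 3 (0.099). Its other probe sets, which were dim, gave 0.08 and 0.15 with overlapping lines.

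Among MRPS genes that missed the threshold, MRPS22, a mitochondrion-specific protein, came closest. Its signals were 11.75, 11.64 and 11.86 in S116A and 11.42, 11.49 and 11.47 in S116D, a difference of −0.30 (adjusted p = 0.056). All its probe sets gave between −0.29 and −0.31 and none overlapped, but all are of the type whose probes can match other transcripts. MRPS5, a homologue of a bacterial protein, gave −0.19 (adjusted p = 0.14). MRPS28 gave 0.40 (adjusted p = 0.18) and MRPS16 0.28 (adjusted p = 0.24), with overlap in both.

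**Figure D2:**
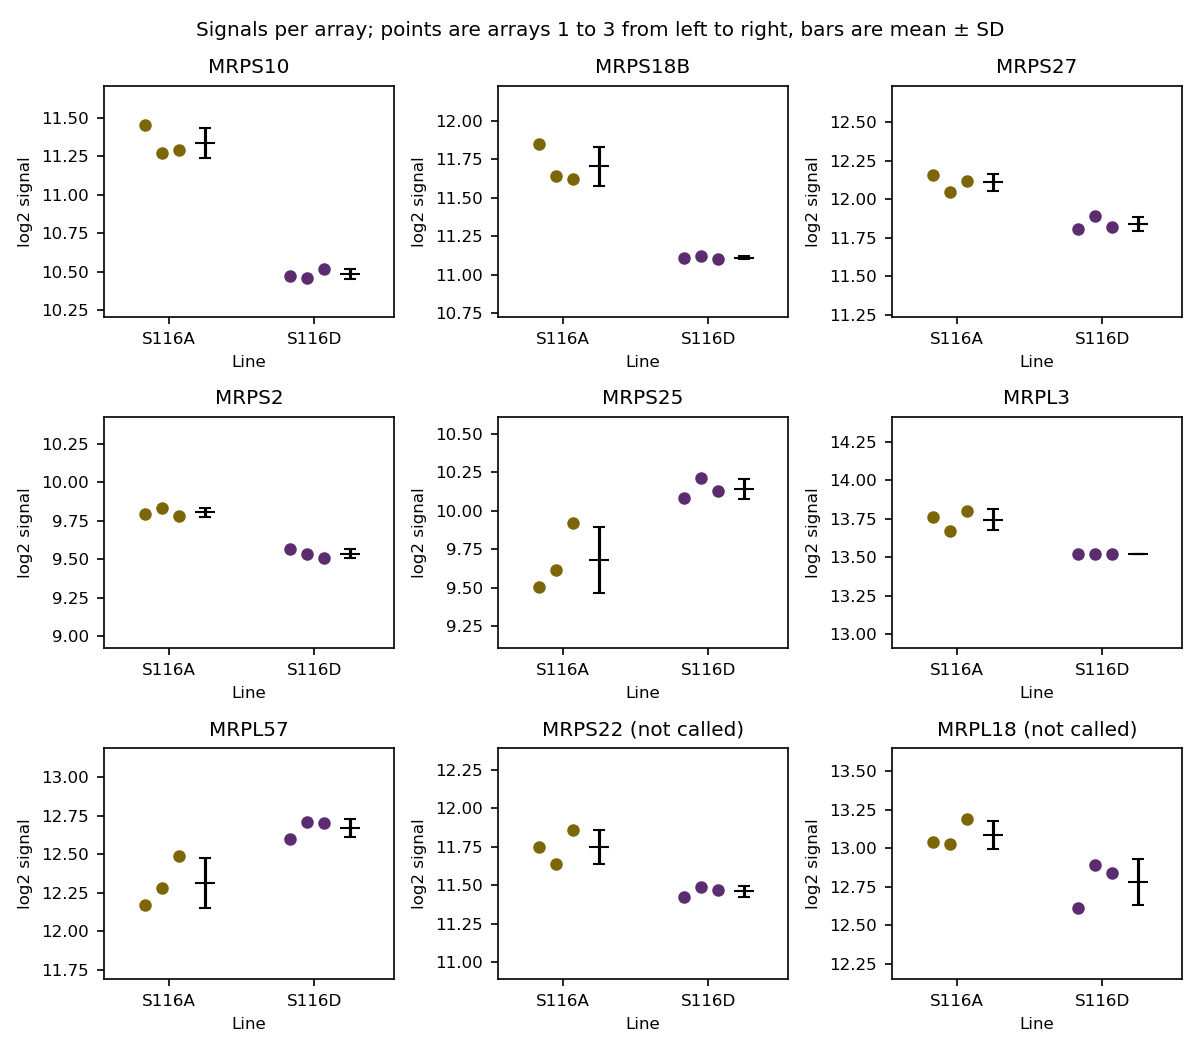
Log2 signal (vertical axis) of each array for the 7 called members and for MRPS22 and MRPL18, which were not called; points are single arrays, bars mean ± SD of 3 arrays, and each panel has its own signal range of equal span. MRPS10 and MRPS18B show the widest gaps between the lines, while MRPS25 and MRPL57 differ most from array to array within S116A.

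The MRPL genes as a list were centred near 0, with a median difference of 0.0033 and a range from −0.30 to 0.36. The sign of this median changed with the setting, from −0.041 to 0.064. S116D arrays lay wholly below S116A arrays for 7 of the 48 MRPL genes and wholly above for 2, against 12.6% and 15.3% of all genes. Of the 30 genes with a bacterial homologue 1 was lower and none higher, and of the 18 mitochondrion-specific ones 1 was higher. The lists of the subunits were not tested against each other. On each array the mean MRPS signal minus the mean MRPL signal was 0.119, 0.112 and 0.066 in S116A and −0.019, −0.039 and −0.044 in S116D. Means include the large differences of MRPS10 and MRPS18B. By medians the lines were not separate: MRPS and MRPL genes both gave 11.29 on S116A 3, against 11.11 and 11.04 on S116D 1.

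MRPL3, a homologue of a bacterial protein near the catalytic centre, was lower in S116D. Its signals were 13.76, 13.67 and 13.80 in S116A and 13.52 on each S116D array. The difference was −0.22 (95% interval −0.35 to −0.10, adjusted p = 0.030), or 1.17-fold. The call held without S116A 2, and was lost without any other array, with adjusted p from 0.059 to 0.11.

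MRPL57, a small mitochondrion-specific protein, was higher in S116D. Its signals were 12.17, 12.28 and 12.49 in S116A and 12.60, 12.71 and 12.70 in S116D. S116A 3 was the highest of its line. The difference was 0.36 (95% interval 0.15 to 0.57, adjusted p = 0.040), or 1.28-fold. The call was lost without S116A 1 or S116A 2 (adjusted p = 0.13 each), or S116D 2 or S116D 3 (0.14 each). The other probe sets of MRPL57 gave −0.03, with overlapping lines, and 0.21 and 0.29, without overlap. None of them was called.

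Of the MRPL genes not called, MRPL18 was closest to the threshold. Its signals were 13.04, 13.03 and 13.19 in S116A and 12.61, 12.89 and 12.84 in S116D, with a difference of −0.30 (adjusted p = 0.063) and no overlap. MRPL4, a homologue of a bacterial protein at the exit tunnel, gave −0.20 (adjusted p = 0.14). MRPL27 gave 0.26 (adjusted p = 0.17) with overlapping lines. MRPL2 gave −0.21 (adjusted p = 0.16) on its brightest probe set and 0.20 on the other, and the lines were separate on both, in opposite directions.

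Probe sets of 1 gene often differed in sign. Of the 37 members with more than 1 probe set, 16 had the same sign on all of them. On 5 of the 37 at least 1 probe set was called, on none were all called, and on none were probe sets called in opposite directions. Adjusted over all 54613 probe sets, of which 8.55% were called, 2 of 57 MRPS probe sets were higher and 2 lower, and by limma 0 of 83 MRPL probe sets were higher and 2 lower, with 8 above 0 at an unadjusted p under 0.05. Over all probe sets 4.36% were higher and 4.19% lower. MRPL19 carried both of the latter, on dim probe sets, at −0.45 (adjusted p = 0.021) and −0.32 (adjusted p = 0.045), while its brightest gave −0.01. MRPS14 was called on its dimmer probe set alone, at 0.43 (adjusted p = 0.014), and its brighter one gave 0.0011. With the median of the probe sets in place of the brightest, MRPS25 gave 0.08 (adjusted p = 0.75), MRPL57 0.09 (adjusted p = 0.61) and MRPS27 −0.16 (adjusted p = 0.17), and these 3 calls were lost.

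**Figure D3:**
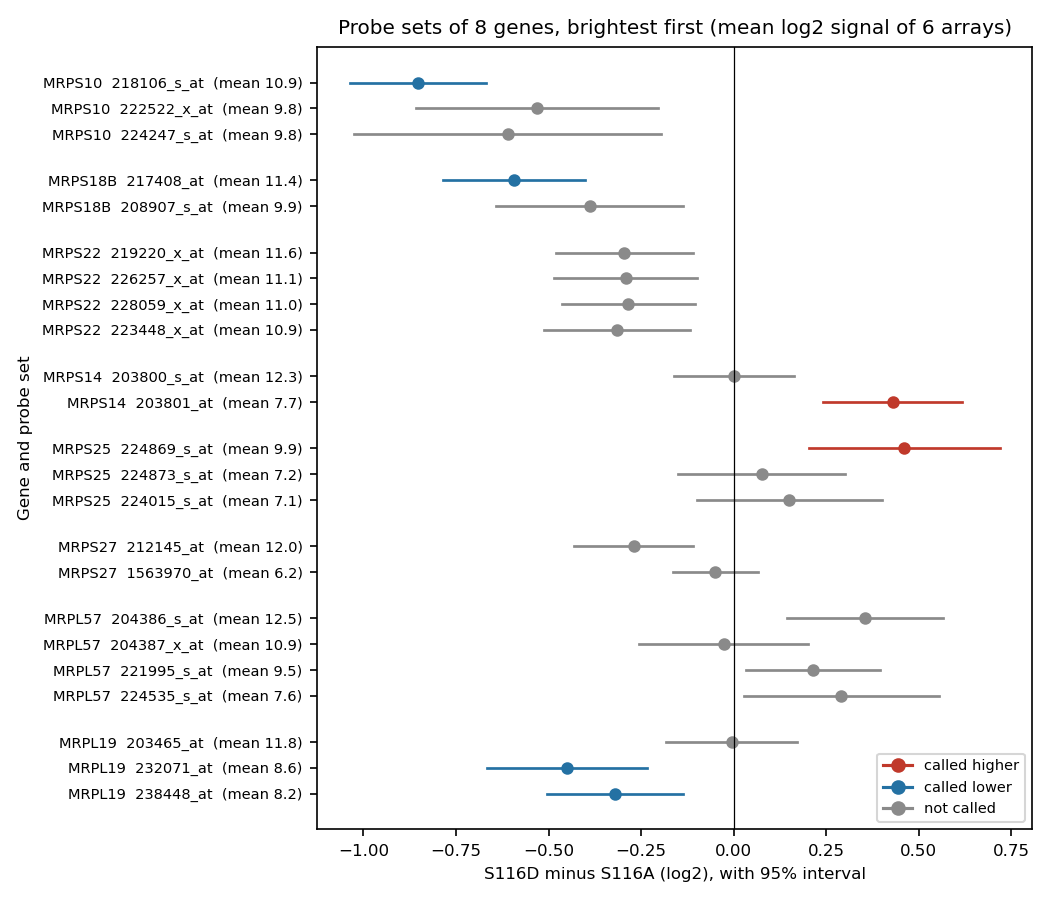
Difference between the lines on the log2 scale (horizontal axis), with 95% intervals, for every probe set of 8 members, brightest first within a gene, coloured by the call over all probe sets. The probe sets of MRPS10, MRPS18B and MRPS22 all lie left of 0, while those of MRPS14, MRPS25, MRPL57 and MRPL19 range from near 0 to a clear difference.

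Within each line most members had the same order of arrays. Among S116A arrays 61 of the 75 were highest on S116A 3 (81.3%), against 40.7% of all genes. Among S116D arrays 63 were lowest on S116D 1 (84%), against 37.6% of all genes. Both held for 17 of 27 MRPS and 42 of 48 MRPL genes, together 78.7% against 22% of all genes. Relative to each gene's mean within the same line, the MRPL genes averaged −0.081, −0.063 and 0.144 on the S116A arrays. On the S116D arrays they averaged −0.118, 0.053 and 0.065. The MRPS genes followed the same course, with 0.111 on S116A 3 and −0.102 on S116D 1 at the extremes, while all genes averaged within 0.015 of 0 on every array. The same order was seen on both arrays for 67.7% of the RPL and RPS genes, named for cytosolic ribosomal proteins, and 69.7% of genes for respiratory chain subunits. Neither the order within a line nor the averages relative to a gene's mean within its line contain the difference between the lines.

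**Figure D4:**
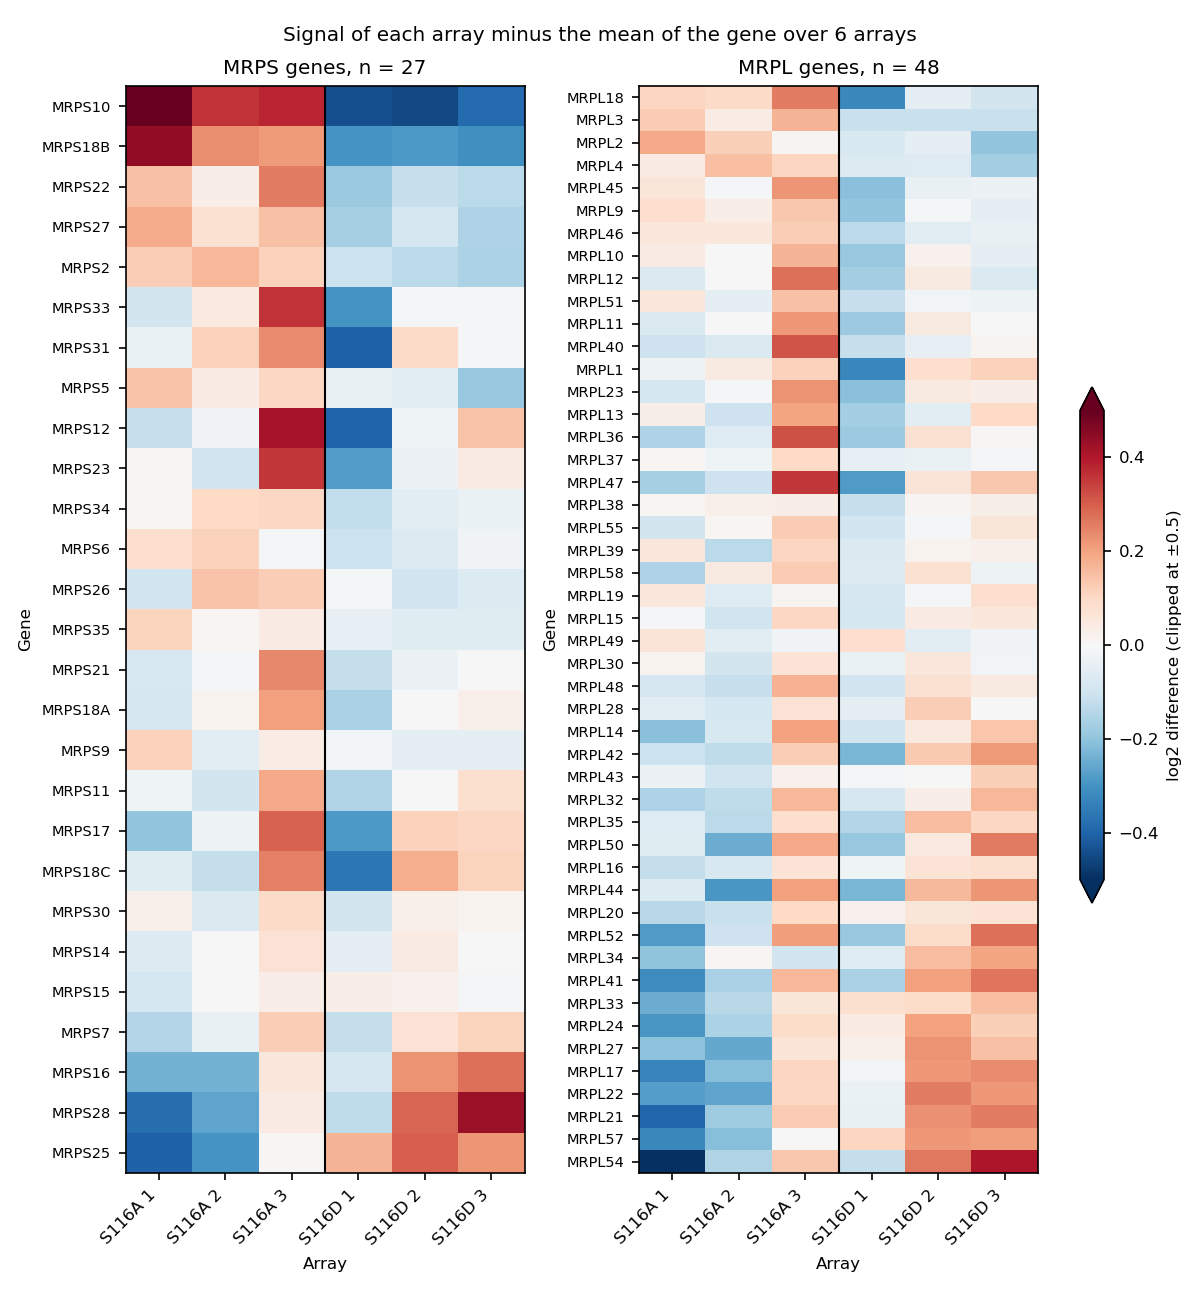
Signal of each array (columns) minus the gene's mean over 6 arrays, on the log2 scale and as colour from −0.5 (blue) to 0.5 (red), for each MRPS and MRPL gene (rows, sorted by the difference between the lines). S116A 3 is red and S116D 1 blue in most rows: 61 of the 75 genes are highest of their line on the former and 63 lowest of theirs on the latter.

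The second principal component over all probe sets held 20.3% of the variance. It separated S116A 1, S116A 2 and S116D 1 from S116A 3, S116D 2 and S116D 3, a division that no label names. For GAPDH the signal of the 3′ control probe set minus that of the 5′ one (log2), a measure of RNA integrity, was 0.73, 0.78 and 0.79 on the former and 0.65, 0.70 and 0.71 on the latter. For ACTB it was 2.33, 2.34 and 2.44 on the former and 2.43, 2.47 and 2.27 on the latter, so the 2 sets overlapped for this control. The part of RNA integrity in the pattern was not tested. Within the former set the median difference between the lines was −0.14 for MRPS and −0.037 for MRPL genes. Within the latter it was −0.18 and −0.052, against 0.014 and −0.0094 for all genes. Of the 27 MRPS genes 23 were below 0 in both sets (85.2%), and of the 48 MRPL genes 25 (52.1%), against 32.9% of all genes. These shares are not independent of the order of arrays described above. S116D 1 was the only S116D array of the former set, and S116A 3 the only S116A array of the latter. Genes lowest of their line on S116D 1 and highest on S116A 3 are drawn downward in both sets. That order held for 78.7% of members and 22% of all genes, and its part in these shares was not tested.

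With this division as a block, an alternative chosen after seeing the data, 22.3% of all genes were called, 11.9% higher and 10.4% lower. The 7 members called without it remained, and 19 members were called in all, 9 MRPS and 7 MRPL genes lower and 2 MRPS and 1 MRPL gene higher. MRPS12 gave −0.34 (adjusted p = 0.0065), MRPS33 −0.32 (0.0041), MRPS22 −0.33 (0.0033) and MRPL18 −0.37 (0.00045) in that fit. A block taken from the same arrays can make p-values too small. It also shifts the differences themselves, since 1 line has a single array in each set. Without the block MRPS12 gave −0.19 and MRPL18 −0.30, while MRPS10 went from −0.853 to −0.845 with it. The further calls under this block were therefore not read as results.

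Lists of genes that work with the mitochondrial ribosome were read against the 12.2% called over all genes. The mitoribosomal proteins without an MRP name that were measured, DAP3, PTCD3, CHCHD1 and GADD45GIP1, were not called by limma and gave between 0.11 and 0.26, with 1 of them at an unadjusted p under 0.05. All 4 were thus above 0, whereas 21 of the 27 MRPS genes were below 0, and the medians by structure leave them out. Of 27 assembly factors 2 were higher and 1 lower (11.1%), a share near that of all genes. RPUSD4, which modifies the large ribosomal RNA, differed by 0.50 and MTERF4, which brings an RNA methyltransferase to the ribosome, by 0.33. RCC1L, needed for assembly, differed by −0.47. The list's median was −0.038.

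Among 15 translation factors the ribosome rescue factor MTRES1 was higher by 0.34 and the release factor MTRF1L lower, at −0.33. Of 20 mitochondrial aminoacyl-tRNA synthetases and partners, LARS2 (0.51), HARS2 (0.39) and NARS2 (0.36) were higher. GATB, a subunit of the enzyme that forms glutaminyl-tRNA, was lower at −0.65. KARS1, which serves cytosol and mitochondria, was lower at −0.21. Medians of both lists were below 0, at −0.080 and −0.060.

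Of 13 genes for mitochondrial transcription and RNA processing, 2 were lower. TRMT10C, a subunit of mitochondrial RNase P, had signals of 11.91, 11.85 and 12 in S116A and 10.97, 11.02 and 11.09 in S116D, a difference of −0.89 (adjusted p = 0.00027). TFB2M, which melts mitochondrial promoters for transcription, had 10.89, 10.85 and 11.03 in S116A and 10.09, 10.19 and 10.20 in S116D, a difference of −0.76 (adjusted p = 0.00097). MTPAP, the mitochondrial poly(A) polymerase, was higher by 0.42. The 7 mitochondrially encoded messages measured were not called by limma, 0 had an unadjusted p under 0.05, and 6 of them were above 0, with a median of 0.22. All 7 were lowest on the single array S116A 1. There ATP6 gave 13.80, against 14.69 and 14.43 on the other S116A arrays and 14.56, 14.65 and 14.50 in S116D. How far S116A 1 set this median was not tested.

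Of 10 transcription factors and coactivators that act on genes for mitochondrial proteins, MYC was lower at −0.78 (adjusted p = 0.025), while YY1 was higher by 0.31 (adjusted p = 0.040) and GABPB2, a partner of the ETS protein GABPA, by 0.59 (adjusted p = 0.0087). GABPA itself gave −0.29 (adjusted p = 0.055) and NRF1 −0.25 (adjusted p = 0.11). Neither was called, though the lines did not overlap for either. Of the 10 factors 7 were below 0 and 3 above. Genes with RPL or RPS symbols, nearly all for proteins of the cytosolic ribosome, had 1 call among 62, RPL39L at −0.96, and a median of −0.0085. This list, taken by symbol, also holds RPS19BP1, which encodes an RPS19-binding protein. Of 76 genes for respiratory chain subunits and ATP synthase, its inhibitor ATP5IF1 included, 10 were higher and 3 lower (17.1%), with a median of 0.094 and 23.7% below 0. The lower ones are COX7B2 (−3.16), COX7A1 (−2.63) and COX4I1 (−0.49), all of cytochrome c oxidase, and the largest called rise was ATP5MJ of ATP synthase, at 0.999.

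**Figure D5:**
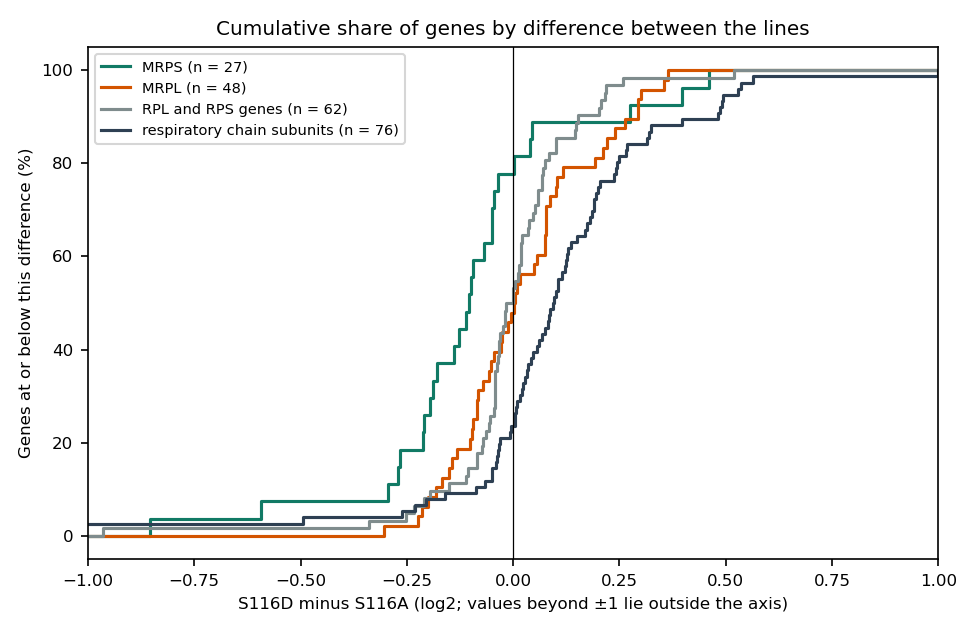
Share of genes, in percent (vertical axis), at or below a given difference between the lines on the log2 scale (horizontal axis), as 1 step line per gene list. The MRPS line lies to the left, with 77.8% of its genes below 0, the MRPL line and that of the RPL and RPS genes cross 0 near the middle, and the respiratory chain line lies to the right, with 23.7% below 0.

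Genes next to the called members along the chromosome did not share one direction from member to member. For each called member the 5 nearest measured genes on either side were taken. Beside MRPS10, on chromosome 6, 4 of the 10 were lower, BYSL (−0.44), C6orf132 (−0.83), TRERF1 (−0.65) and UBR2 (−0.33), and none was higher. Over all genes 5.39% were lower and 6.79% higher. Beside MRPS18B, also on chromosome 6, HLA-E (0.66) and NRM (0.33) were higher and none was lower. Beside MRPS27 FCHO2 was higher (0.35) and MAP1B lower (−0.58). None of the 10 neighbours was called for MRPL3, MRPL57, MRPS2 or MRPS25. Copy number was not measured.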

How the data were processed

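The deposited table gives 1 value per probe set and array for 6 Affymetrix HG-U133 Plus arrays, 3 per line. The authors' deposited values run from 4.34 to 15.33 and were read as log2 signals. MAS5 and RMA are named, without a role, in the submitters' processing notes. Versions, filters and the background correction were not given in the sources used here. No detection calls were used, and precision is limited by the number of arrays. Control probe sets (62) were left out. Genes were named through GEO's platform annotation and RefSeq (GRCh38.p14), and the brightest probe set, by its mean over 6 arrays, stood for a gene.

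The comparison used lmFit and eBayes of limma 3.58.1 (R 4.3.3; intensity trend, no covariates) over all 19775 genes, and over all 54613 probe sets, adjusted by Benjamini-Hochberg, and p-values under 0.05 were called. The fit was tested on simulated data. Exact permutation of 3 against 3 arrays has a smallest p of 0.1 and was not used. SEs are limma's, and SDs are over 3 arrays.

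The members and lists were chosen with earlier results of these data known. Members named are all called genes, the 4 uncalled per subunit with the smallest p, the 3 brightest and 3 dimmest per subunit, genes called on only some probe sets, the MRPS18 paralogs, and up to 4 called genes of each related list by smallest adjusted p. Further genes (NARS2, marker genes, called neighbours, uncalled genes of related lists and those named under the block of array sets) were chosen after their values were seen. Alternatives tried were median centring, quantile normalization, leaving out dim probe sets, no trend, array weights, a block for the replicate number, 2 other choices of probe set, subunits by structure, platform symbols, ordinary t statistics and leaving out each array.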

Additional observations from a re-analysis of the deposited data

How the results depend on the processing

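In each alternative MRPS10 and MRPS18B stayed called and lower. Deviations of same-numbered arrays from the means of their lines correlated at 0.528 for replicate 1, −0.105 for replicate 2 and 0.547 for replicate 3. Whether replicate numbers pair the arrays was not tested. With the replicate number as a block 19.7% of all genes were called, with 3 MRPS genes higher, 4 MRPL genes higher and 2 lower, 11 MRPS probe sets lower, and 4 MRPL probe sets higher and 5 lower. The reported counts were 1 MRPS gene higher and 4 lower, 1 MRPL gene higher and 1 lower, 2 MRPS probe sets higher and 2 lower, and 0 MRPL probe sets higher and 2 lower. Quantile normalization left 2 MRPS genes lower and 1 MRPL probe set higher. Centring gave 4 MRPS and 4 MRPL probe sets lower. The filter on dim probe sets gave 1 MRPS probe set higher and 5 lower, and 1 MRPL probe set higher and 4 lower. Without trend 7 MRPS probe sets were lower and 1 MRPL probe set higher. Array weights gave 3 MRPS and 8 MRPL genes higher, 5 MRPS and 4 MRPL probe sets lower and 1 MRPL probe set higher. Taking each gene's median probe set signal gave 0 MRPS and 0 MRPL genes higher and 2 MRPL genes lower. Unshared probe sets gave 2 MRPS genes higher. Ordinary t statistics gave 0 MRPS and 0 MRPL genes higher and 0 MRPL genes lower. The block of array sets gave 2 MRPS genes higher and 9 lower, 7 MRPL genes lower, 16 MRPS probe sets lower, and 1 MRPL probe set higher and 8 lower. Without single arrays, MRPS genes higher ranged from 0 to 2 and lower stayed at 2, and MRPL genes higher ranged from 0 to 6 and lower from 0 to 1. Likewise MRPS probe sets higher ranged from 0 to 2, MRPL probe sets higher from 0 to 1 and MRPL probe sets lower from 0 to 1. The cause of these shifts was not tested. The MRPS median ranged from −0.162 to −0.045 and the MRPL median from −0.041 to 0.064.

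Among uncalled members named, some signs turned, none with a call. MRPL19 was 0.036 with quantile normalization and 0.022 with array weights, and −0.050 to 0.037 without single arrays. MRPL20 was −0.056 with the median of probe sets and −0.079 with unshared ones, where MRPL4 was 0.018. MRPS15 was −0.039 and −0.13 under the same 2 rules. MRPL44 was −0.032 and MRPL52 −0.013 with the block of array sets, and MRPL44 −0.018 to 0.241 without single arrays. MRPL55 was 0.020 with array weights and −0.080 to 0.028 without single arrays. MRPS14 was −0.011 with centring, −0.028 with the block of array sets and −0.034 to 0.036 without single arrays. MRPS18C was 0.11 with array weights, 0.042 with the median of probe sets and −0.144 to 0.123 without single arrays. Signal over background limits dim probe sets, since no detection calls were used.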
